A study of Mus musculus with 9 samples.

Results

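Scavenger receptors take up modified lipoproteins, dying cells, hemoglobin complexes and extracellular debris, mainly in macrophages and in some endothelial cells. Followed here by symbol were 10 genes of this kind in RNA of the mouse iris: *Marco*, *Msr1*, *Cd36*, *Scarb1*, *Olr1*, *Stab1*, *Stab2*, *Cd163*, *Mrc1* and *Cd5l*. These were 10 of the 18349 genes listed, and all 10 were among the 15010 genes kept by edgeR's filter on low counts. Class A receptors (*Marco*, *Msr1*) bind bacteria and modified lipoproteins, class B receptors (*Cd36*, *Scarb1*) bind oxidized lipids or high-density lipoprotein, and *Olr1* encodes the receptor LOX-1 for oxidized low-density lipoprotein. *Stab1* and *Stab2* encode stabilins of macrophages and sinusoidal endothelium, *Cd163* the receptor for hemoglobin bound to haptoglobin, and *Mrc1* the mannose receptor CD206. *Cd5l* encodes AIM, a secreted protein made by macrophages that belongs to the same cysteine-rich domain family as CD163 and acts on CD36-mediated uptake.

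The 9 libraries formed 3 groups of 3, and each library pooled 3 irises of C57BL/6J mice. Sham VEGFR3 fl/fl mice received PBS on the cornea at 6 weeks of age. Injured VEGFR3 fl/fl mice and injured VEGFR3 fl/fl;Prox1-CreERT2 mice, called VEGFR3 iLECko, had sodium hydroxide (1 M, 0.5 μL) there for 60 seconds. Tamoxifen was given at 80 mg/kg on days 13 to 17 to mice with and without Cre, and irises were collected at 10 weeks, on day 28. Cre was driven by *Prox1*, a gene of lymphatic endothelium that is also active in other cell types, and the iris tissue, trimmed at its outer edge, was sequenced without sorting cells. The labels call the fl/fl genotype WT.

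Total counts per library lay between 16617187 and 18306359. *Flt4*, the gene for VEGFR3, ranged from 237 to 282 counts among the Sham libraries, from 277 to 400 after injury of VEGFR3 fl/fl mice and from 370 to 478 under the VEGFR3 iLECko label, so that it was not lower where it is labelled as deleted. Its log2 difference between the injured groups was 0.34 (standard error, SE, 0.15, Benjamini-Hochberg adjusted p = 0.2 by the edgeR quasi-likelihood F-test). Counts per gene in unsorted iris cannot show whether *Flt4* was deleted in lymphatic endothelium. By LYVE1 staining, the paper reports that lymphatic growth in the injured iris was blocked in mice of this genotype. Among the 3 libraries labelled VEGFR3 iLECko, the genotype tags of replicates 2 and 3 name another VEGFR, whereas titles and descriptions name VEGFR3. The Y-linked gene *Ddx3y* had 335, 588 and 1224 counts in Sham, 977, 1024 and 0 after injury of VEGFR3 fl/fl mice, and 2, 0 and 0 under the VEGFR3 iLECko label. The mix of sexes in the pools therefore went along with the groups. Markers of iris smooth muscle summed to 7920 to 10200 counts scaled to library size (CPM, on the TMM scale) in Sham and 1640 to 3370 CPM in injured VEGFR3 fl/fl libraries, and those of pigment cells to 27700 to 29600 CPM and 3370 to 5810 CPM, with no marker of either list at 0 in any library. Of these lists, 5 of 6 and 7 of 7 genes fell after injury by edgeR.

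*Marco* and *Olr1* were at 0 counts in every Sham library, and *Cd5l* had 4, 4 and 6 counts there, while *Mrc1* was present before injury and *Cd163* did not rise. The 250 bases before the start of these 5 genes are shown for that reason (RefSeq, GRCm38.p6, each 5′ to 3′ on the strand of its gene). The windows of *Olr1* and *Cd163* reach into the gene spans given below, which begin upstream of the start used for the window. Capitals mark the letters searched on both strands, GAGGAA of PU.1 (TTCCTC on the other strand), TGACTCA of AP-1, AGGTCA of nuclear receptors and TGCTGA of MAF factors. The windows were chr1:120505025-120505274 (minus strand) for *Marco*, chr6:129507166-129507415 (minus strand) for *Olr1*, chr3:87357631-87357880 (plus strand) for *Cd5l*, chr2:14229164-14229413 (plus strand) for *Mrc1* and chr6:124304401-124304650 (plus strand) for *Cd163*.
Marco: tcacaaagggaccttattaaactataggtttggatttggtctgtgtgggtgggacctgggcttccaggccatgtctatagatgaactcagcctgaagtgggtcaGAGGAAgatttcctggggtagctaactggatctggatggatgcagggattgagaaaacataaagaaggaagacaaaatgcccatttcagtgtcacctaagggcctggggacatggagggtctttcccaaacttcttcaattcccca
Olr1: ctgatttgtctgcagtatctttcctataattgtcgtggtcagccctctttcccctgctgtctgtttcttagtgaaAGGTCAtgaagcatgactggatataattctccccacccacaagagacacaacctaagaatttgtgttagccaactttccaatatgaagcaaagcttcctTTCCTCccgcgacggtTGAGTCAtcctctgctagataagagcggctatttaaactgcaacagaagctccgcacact
Cd5l: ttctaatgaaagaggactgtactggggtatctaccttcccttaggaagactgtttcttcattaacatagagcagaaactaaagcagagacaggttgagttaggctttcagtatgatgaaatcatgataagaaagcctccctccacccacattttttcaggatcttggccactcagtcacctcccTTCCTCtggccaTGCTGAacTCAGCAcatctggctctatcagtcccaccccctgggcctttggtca
Mrc1: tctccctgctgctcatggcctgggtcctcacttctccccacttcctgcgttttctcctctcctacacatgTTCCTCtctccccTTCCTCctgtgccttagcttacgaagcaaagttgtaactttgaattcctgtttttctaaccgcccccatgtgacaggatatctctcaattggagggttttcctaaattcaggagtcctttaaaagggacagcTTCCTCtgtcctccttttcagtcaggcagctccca
Cd163: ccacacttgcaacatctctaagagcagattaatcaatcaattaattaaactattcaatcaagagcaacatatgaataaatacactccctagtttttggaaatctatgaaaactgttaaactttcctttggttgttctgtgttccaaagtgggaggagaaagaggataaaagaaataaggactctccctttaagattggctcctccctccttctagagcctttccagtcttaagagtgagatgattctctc
No marked stretch overlapped another. Of the 8 genes with a window (all but *Msr1* and *Scarb1*), 5 held GAGGAA (*Marco*, *Olr1*, *Stab1*, *Mrc1* and *Cd5l*), against 23.3% of 32851 mouse windows of this length. Among the windows not shown, that of *Cd36* lay wholly inside its gene span, and those of *Stab1* and *Stab2* reached into theirs. AGGTCA was in 3 of the 8 (14% of all windows), TGCTGA in 3 (16.1%), TGACTCA in the *Olr1* window alone among the 8 (4.46%), and CACGTG, the E-box letters of MiT/TFE factors, in 0 of the 8 (6.02%). *Cd5l* held TGCTGA on each strand with 2 bases between, and *Mrc1* held GAGGAA at 3 places. The *Cd163* window held none of the letters searched.

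Before injury the highest level per transcript length belonged to *Scarb1*, at 72.2 ± 7.48 TPM (SD, n = 3). TPM is counts per transcript length, scaled to the same total in each library without TMM factors, and is approximate here. *Stab1* followed with 26.4 ± 2.46 TPM and *Mrc1* with 20.9 ± 2.06 TPM (SD, n = 3 each). *Cd36* (7.91 TPM), *Cd163* (4.28 TPM) and *Msr1* (3.14 TPM) came next, and no 2 neighbours among these 6 overlapped between libraries. *Stab2* (0.455 to 1.01 TPM) and *Cd5l* (0.307 to 0.482 TPM) overlapped. In injured VEGFR3 fl/fl irises the means of 6 genes lay between 44.6 TPM (*Msr1*) and 79.1 TPM (*Stab1*), and every pair of neighbours in that order overlapped, namely *Stab1*, *Mrc1*, *Cd36*, *Scarb1*, *Cd5l* and *Msr1*. *Marco* was lower at 0.471 to 22.5 TPM, below every *Msr1* value, and overlapped *Stab2* at 1.2 to 8.32 TPM. *Cd163* (0.292 to 3.47 TPM) and *Olr1* (0.726 to 1.74 TPM) had the lowest means, and both overlapped *Stab2* and *Marco*. In injured VEGFR3 iLECko irises the order began with *Mrc1* (70.5 TPM), *Stab1* (64.1 TPM) and *Scarb1* (63.4 TPM). *Stab1* overlapped both of the others. *Cd5l* stood at 8.32 to 32.2 TPM there, below every *Cd36* value, and *Stab2* came last at 1.04 to 1.13 TPM, within the range of *Olr1* (0.907 to 1.49 TPM).

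**Figure D1:**
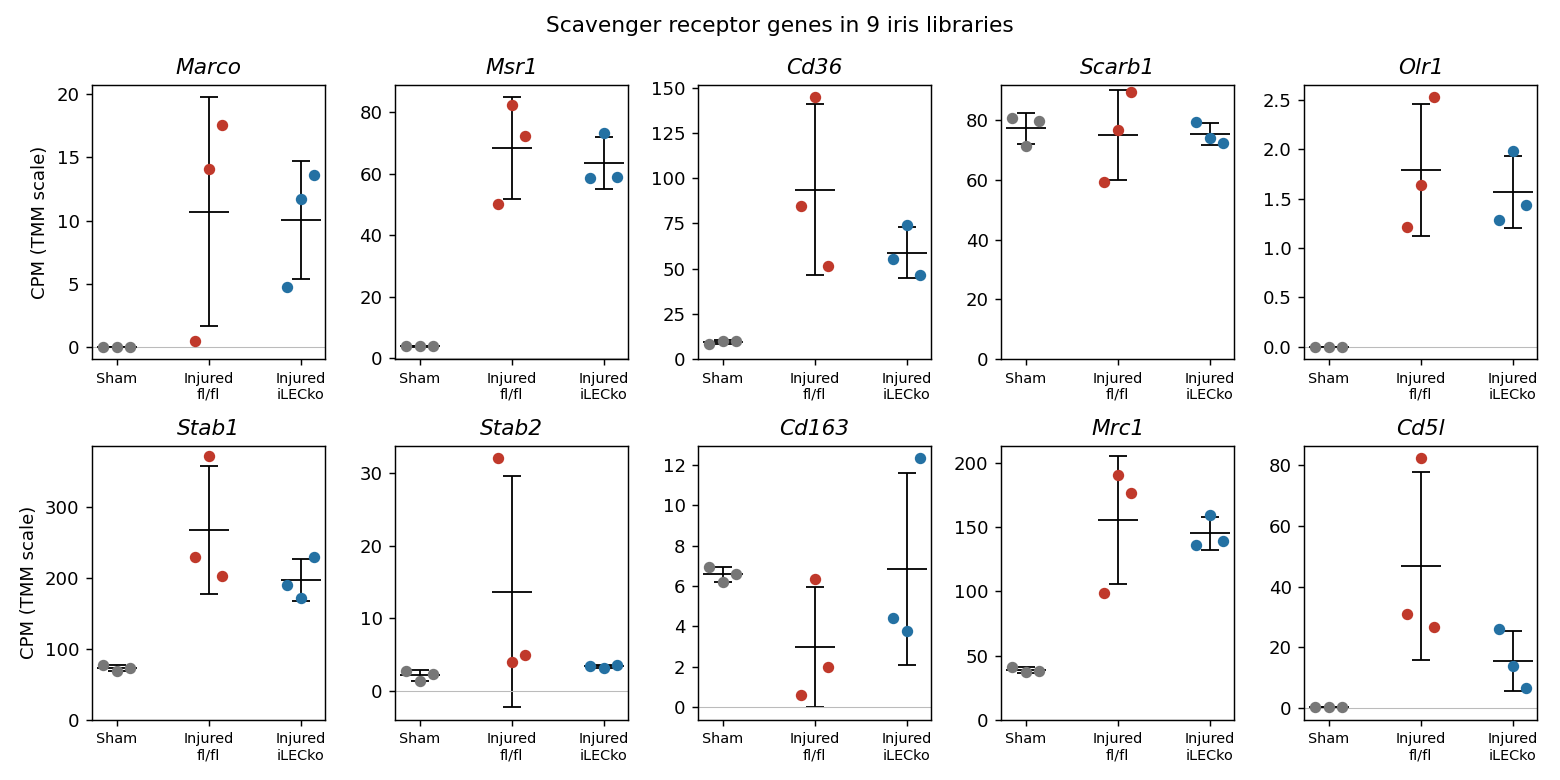
Normalized expression (CPM on the TMM scale, linear axes from 0 or just below) of the 10 genes in each library, with points for libraries in replicate order from left to right and bars for the group mean ± SD (n = 3). In 8 genes each injured VEGFR3 fl/fl point exceeds each Sham point, *Scarb1* and *Cd163* overlap, and replicate 1 of injured VEGFR3 fl/fl is the lowest for *Marco* at 0.425 CPM and the highest for *Stab2* at 32.0 CPM.

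Injured VEGFR3 fl/fl irises were compared with Sham to ask what corneal injury does to these transcripts in the iris. Of the 10 genes, 8 rose and 0 fell by the edgeR quasi-likelihood F-test (Benjamini-Hochberg adjusted over all genes, change of more than 1.5-fold), while 22.1% of all 15010 genes tested rose and 17.5% fell. The unadjusted p was under 0.05 for 8 genes, and over all 15010 genes for 5023 that were higher and 4593 that were lower. DESeq2 called 7 of the 10 as rising and 0 as falling, without an adjusted p for *Stab2*. The median log2 fold change of the 10 was 3.00, also with *Marco* and *Olr1* at the bounds given for them, against 0.01 for all genes. In the same 8, each injured library exceeded each Sham library, as in 33.9% of all genes. Because RNA came from unsorted iris tissue, more cells of a type and more RNA per cell cannot be told apart. The 14 macrophage reference genes all rose as well, with a median log2 fold change of 3.35. Their summed level was 554 to 574 CPM in Sham and 13500 to 21900 CPM in injured VEGFR3 fl/fl libraries, with none at 0 in any library, and their part in the result was not tested.

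Among the class A receptors, *Marco* (NCBI Gene ID 17167, chr1:120474538-120505024) went from 0 counts in all 3 Sham libraries to 7, 241 and 306 counts in injured VEGFR3 fl/fl replicates 1, 2 and 3. It was detected in all 3 injured libraries, but replicate 1 held far fewer counts than the other 2. The mean was at least 63.6-fold higher than the level of 3 counts in a Sham library (edgeR adjusted p = 0.00491), a bound that moved to 94.2 without that replicate and 43.2 without replicate 3. *Msr1* (20288, chr8:39543232-39642750), which encodes the receptor SR-A, had 70, 73 and 69 counts in Sham and 824, 1408 and 1259 in injured VEGFR3 fl/fl libraries. It rose by 4.10 on the log2 scale (SE 0.20, edgeR adjusted p = 4.58e-07), and its highest injured library was 1.65 times its lowest in CPM.

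Of the class B receptors, *Cd36* rose and *Scarb1* did not pass the test. *Cd36* (12491, chr5:17781690-17888959), which binds oxidized lipoproteins and fatty acids, had 148, 175 and 176 counts in Sham and 1394, 2472 and 893 in injured VEGFR3 fl/fl libraries. The log2 fold change was 3.32 (SE 0.36, edgeR adjusted p = 5.38e-05). Adipocytes and blood endothelium also use *Cd36*. The summed level of the adipocyte markers in the files was 130 to 149 CPM in Sham and 40.5 to 50 CPM in injured VEGFR3 fl/fl libraries, with 1 to 3 of 6 markers at 0 in each of these libraries, and 1 of 2 tested fell. Blood endothelial markers summed to 699 to 726 CPM and 1430 to 1620 CPM, and 6 of 10 rose and 2 fell. Their part in the result was not tested. *Scarb1* (20778, chr5:125277087-125341094), the receptor for high-density lipoprotein, had 1456, 1264 and 1417 counts in Sham and 978, 1314 and 1557 in injured VEGFR3 fl/fl libraries. The groups overlapped, with a log2 fold change of -0.04 (95% interval -0.34 to 0.26, edgeR adjusted p = 0.817), which became 0.11 without injured replicate 1.

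*Olr1* (108078, chr6:129479150-129507350) had 0 counts in the Sham libraries and 20, 28 and 44 in injured VEGFR3 fl/fl libraries. Its level was low throughout but its mean was at least 10.7-fold above that of 3 counts in a Sham library (edgeR adjusted p = 9.97e-05). The mannose receptor gene *Mrc1* (17533, chr2:14229414-14332023) had 749, 654 and 681 counts in Sham and 1628, 3260 and 3083 in injured VEGFR3 fl/fl libraries. It rose by 2.0 on the log2 scale (SE 0.22, edgeR adjusted p = 4.95e-05), and injured replicate 1 was again the lowest of its group.

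Of the stabilins, *Stab1* (192187, chr14:31139017-31168651) had 1392, 1226 and 1298 counts in Sham and 3789, 6358 and 3534 in injured VEGFR3 fl/fl libraries, a log2 change of 1.88 (SE 0.22, edgeR adjusted p = 7.25e-05). *Stab2* (192188, chr10:86841194-87008038) had 50, 24 and 41 counts in Sham and 528, 69 and 86 in injured VEGFR3 fl/fl libraries. One library, injured replicate 1, held most of the *Stab2* reads. The log2 fold change of 2.67 (SE 0.75, edgeR adjusted p = 0.0126) was 1.06 without it (edgeR adjusted p = 0.0128). DESeq2 gave no adjusted p for *Stab2*.

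The library with high *Stab2* also held the highest level of all 9 libraries for 5 of 8 lymphatic endothelial markers (*Prox1*, *Pdpn*, *Ccl21a*, *Mmrn1* and *Sema3d*). *Ccl21a*, a chemokine gene of lymphatic endothelium, was at 92.4, 4.63 and 0 CPM in injured VEGFR3 fl/fl replicates 1, 2 and 3, and *Mmrn1* at 7.89, 0.527 and 0.287 CPM. *Lyve1*, by contrast, was at 0.303 CPM in replicate 1 and at 3.98 and 0.861 CPM in the others. *Flt4* was also lower in replicate 1 (16.8 CPM) than in replicates 2 and 3 (20.7 and 23.0 CPM). *Reln* was at 129, 124 and 126 CPM in replicates 1, 2 and 3, below its 435 to 567 CPM in Sham. For *Pdpn* the lead was small, with 613 CPM in replicate 1 and 611 CPM in VEGFR3 iLECko replicate 1. The 8 lymphatic markers summed to 796 to 933 CPM in Sham, 620 to 881 CPM in injured VEGFR3 fl/fl and 792 to 873 CPM in injured VEGFR3 iLECko libraries, with *Ccl21a* at 0 in 1 library, and 2 rose and 1 fell after injury. *Reln* and *Pdpn* (328 to 355 CPM in Sham) made up most of each sum, so the sums say little about the other markers. The part of the 8 markers in the *Stab2* result was not tested.

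*Cd163* (93671, chr6:124304636-124330529) had 125, 110 and 117 counts in Sham and 10, 108 and 35 in injured VEGFR3 fl/fl libraries. Replicates 1 and 3 lay below every Sham library and replicate 2 lay within the CPM range of Sham. Its log2 fold change of -1.14 (SE 0.70, 95% interval -2.72 to 0.44) did not pass the test (edgeR adjusted p = 0.188). Without injured replicate 2 it was -2.31 and called lower (edgeR adjusted p = 0.0136), and without replicate 1 it was -0.66 (edgeR adjusted p = 0.351). *Cd5l* (11801, chr3:87357881-87371074), of the same domain family, rose, with 509, 1407 and 467 counts in injured VEGFR3 fl/fl against 4, 4 and 6 in Sham libraries. Its log2 fold change was 7.44 (SE 0.82, edgeR adjusted p = 5.67e-05), the largest of the 8 genes with Sham counts, and 6.75 without injured replicate 2.

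The injured VEGFR3 iLECko group was compared with the same Sham libraries, so the comparisons are not independent. In this group 7 of the 10 genes rose and 0 fell by edgeR, against 19.7% and 15% of all genes, and 8 were higher in every library than in Sham (33.3% of all genes). *Marco* had 81, 207 and 237 counts, at least 59.7-fold above the level of 3 counts (edgeR adjusted p = 0.00592), and *Olr1* had 22, 35 and 25, at least 9.33-fold above it (edgeR adjusted p = 0.000157). *Msr1* (log2 fold change 4.0), *Cd36* (2.65), *Mrc1* (1.90), *Stab1* (1.43) and *Cd5l* (5.85) rose with edgeR adjusted p of at most 0.000453. *Stab2* had 58, 56 and 62 counts, and its log2 difference from Sham of 0.65 did not pass the test (edgeR adjusted p = 0.49). *Scarb1* had 1360, 1309 and 1258 counts (-0.04, edgeR adjusted p = 0.831). *Cd163* had 76, 67 and 214 counts (0.06, edgeR adjusted p = 0.948). Replicate 3 was far above the other 2, and without it the log2 difference was -0.67. With a covariate for Y-linked expression, added once the data had been seen, 6 of the 10 rose and *Marco* did not pass (edgeR adjusted p = 0.0758). In that fit the log2 fold change was 3.67 for *Cd36* and 6.81 for *Cd5l*, both still called, and 2.25 for *Stab2*, which did not pass (edgeR adjusted p = 0.145). Without VEGFR3 iLECko replicate 1 *Cd5l* was at 5.25. Y-linked transcripts were present in all Sham libraries and at 0 to 2 counts in all 3 libraries labelled VEGFR3 iLECko, so that sex and group cannot be told apart within this pair.

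**Figure D2:**
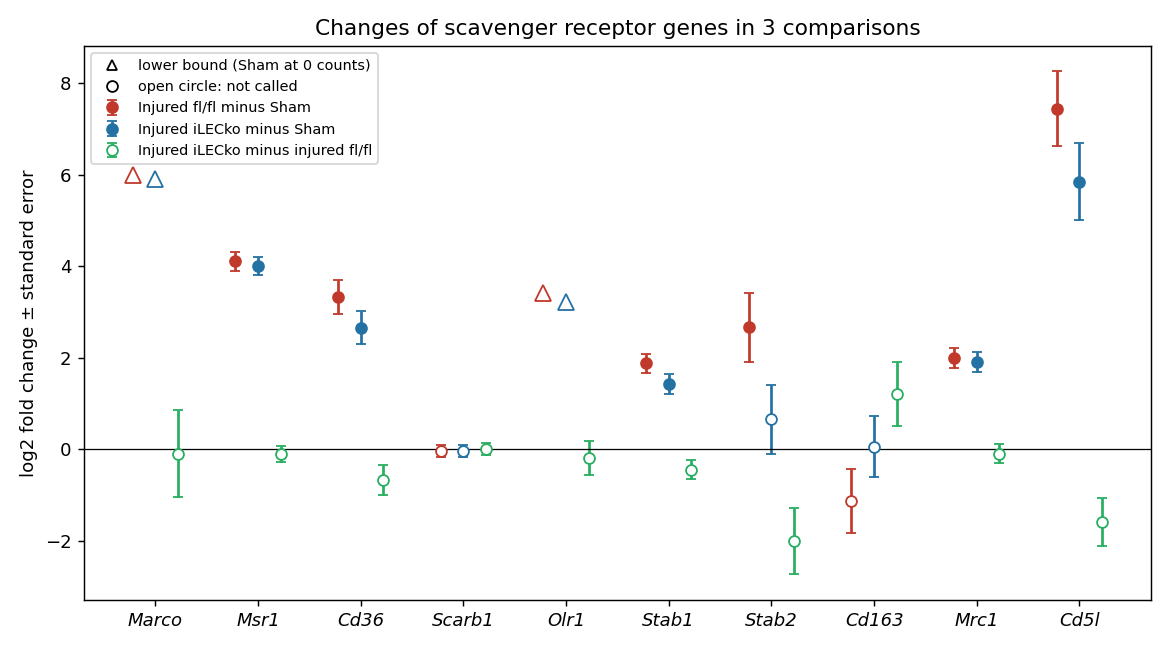
Log2 fold changes with standard errors (edgeR) of the 10 genes for injured VEGFR3 fl/fl minus Sham, injured VEGFR3 iLECko minus Sham and injured VEGFR3 iLECko minus injured VEGFR3 fl/fl, with filled circles for called changes and triangles for lower bounds where Sham had 0 counts. Changes against Sham are called for 8 and 7 genes, and every circle for the difference between the injured groups is open.

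The 2 injured groups were compared to ask whether levels after injury differed between irises labelled VEGFR3 iLECko and VEGFR3 fl/fl. By edgeR 0 of the 10 genes rose and 0 fell, against 0.573% and 0.466% of all genes. The unadjusted p was under 0.05 for 2 genes by edgeR, and for 3 by DESeq2, which also called 0. Of all 15010 genes, 1795 were higher and 1879 lower with an unadjusted p under 0.05 by edgeR. The median log2 difference was -0.15, against -0.01 for all genes, and 8 of the 10 had a negative difference. Of these, *Marco*, *Msr1*, *Mrc1* and *Olr1* each turned positive in some fit with a single library left out. *Cd5l* and *Stab2* were lower in every VEGFR3 iLECko than in every injured VEGFR3 fl/fl library, as were 14.3% of all genes.

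*Cd5l* had 445, 245 and 113 counts in VEGFR3 iLECko libraries, below the lowest injured VEGFR3 fl/fl library with 467. The 2 nearest libraries of the groups, at 26.0 and 26.8 CPM, were close to each other. Its log2 difference was -1.60 (SE 0.52, 95% interval -2.77 to -0.42, edgeR adjusted p = 0.119), and it was between -2.19 and -0.82 over all alternatives. *Stab2* differed by -2.01 (95% interval -3.65 to -0.38, edgeR adjusted p = 0.146) and by -0.41 without injured VEGFR3 fl/fl replicate 1. Its 3 VEGFR3 iLECko libraries lay at 3.17 to 3.57 CPM, close beneath the 4.04 and 4.94 CPM of the other 2 injured VEGFR3 fl/fl libraries.

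The other 8 genes overlapped between the injured groups. The intervals were narrow for *Scarb1* (95% interval -0.30 to 0.30 on the log2 scale), *Msr1* (-0.48 to 0.27) and *Mrc1* (-0.57 to 0.37), and wide for *Marco* (-2.34 to 2.15), *Cd163* (-0.38 to 2.78) and *Olr1* (-1.07 to 0.68). *Stab1* differed by -0.44 (-0.92 to 0.03), which was -0.14 without injured VEGFR3 fl/fl replicate 2. *Cd36* differed by -0.67 (-1.40 to 0.06), which was -0.21 without that replicate. With the Y-linked covariate the differences were -0.82 for *Cd5l*, -0.59 for *Stab2* and 0.16 for *Cd36*. None of the 10 genes then had an unadjusted p under 0.05, and over all genes that fit called 0 higher and 2 lower, against 86 and 70 without the covariate. Replicate 3 was the single injured VEGFR3 fl/fl library with 0 *Ddx3y* counts, against 0 to 2 in the VEGFR3 iLECko libraries, and it was at 26.8 CPM for *Cd5l*, 4.94 CPM for *Stab2* and 51.3 CPM for *Cd36*. Because the covariate nearly follows the labels of these groups, sex and label can hardly be told apart by that fit.

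Macrophage reference genes were lower in VEGFR3 iLECko than in injured VEGFR3 fl/fl libraries in 7 of 14 cases by edgeR, with a median log2 difference of -0.71 and a summed level of 8660 to 10700 CPM. With the Y-linked covariate 1 of the 14 was called lower, and 0 were in the fit of the 6 libraries compared or without VEGFR3 iLECko replicate 2, where edgeR called 0 of all genes in either direction. DESeq2 called 9. The count was 2 without VEGFR3 iLECko replicate 1, without its replicate 3 or without Sham replicate 3, and 3 without Sham replicate 1. The receptors were also set against the mean log2 level of these 14 genes in each library, on the scale of log2(CPM + 0.5). That mean was 4.70 in Sham, 8.05 in injured VEGFR3 fl/fl and 7.40 in VEGFR3 iLECko libraries. Differences were tested by a two-sided exact permutation test over libraries, whose smallest possible p with 3 against 3 is 0.1, in a family of 30 comparisons. None could pass after adjustment.

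Relative to the macrophage genes, 4 receptors with Sham counts were lower in every injured VEGFR3 fl/fl than in every Sham library, as were 96.1% of all genes, whose median difference on this scale was -3.35. The differences were -4.76 for *Cd163*, -3.41 for *Scarb1*, -1.53 for *Stab1* and -1.42 for *Mrc1* (exact permutation p = 0.1 and Benjamini-Hochberg adjusted p = 0.158 for each). In CPM, *Stab1* and *Mrc1* rose. *Msr1* (0.56) and *Cd5l* (2.42) were higher in every injured library with the same p-values, as were 1.24% of all genes, and *Cd36* (-0.22) and *Stab2* (-1.50) overlapped. With *Adgre1* and *Csf1r* alone as the reference, *Stab1* was at -0.77, *Mrc1* at -0.66, *Msr1* at 1.33, *Stab2* at -0.74 and *Cd36* at 0.55, which is the opposite sign. *Cd36* was also positive (0.15) without injured replicate 3, and *Stab2* was at -2.38 without injured replicate 1. With a pseudocount of 2 CPM *Cd5l* was at 1.02. For *Marco* and *Olr1* the value in Sham is set by the pseudocount, and no difference from Sham is given.

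On the same scale 3 receptors stood higher in one injured group. *Msr1* (0.57), *Mrc1* (0.61) and *Scarb1* (0.67) were higher relative to macrophage genes in every VEGFR3 iLECko than in every injured VEGFR3 fl/fl library (exact permutation p = 0.1, adjusted p = 0.158 for each). So were 79.4% of all genes, with a median difference of 0.65, and in CPM the 3 receptors overlapped between the injured groups. *Cd5l* was at -0.93 and overlapped (exact permutation p = 0.4, adjusted p = 0.522).

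**Figure D3:**
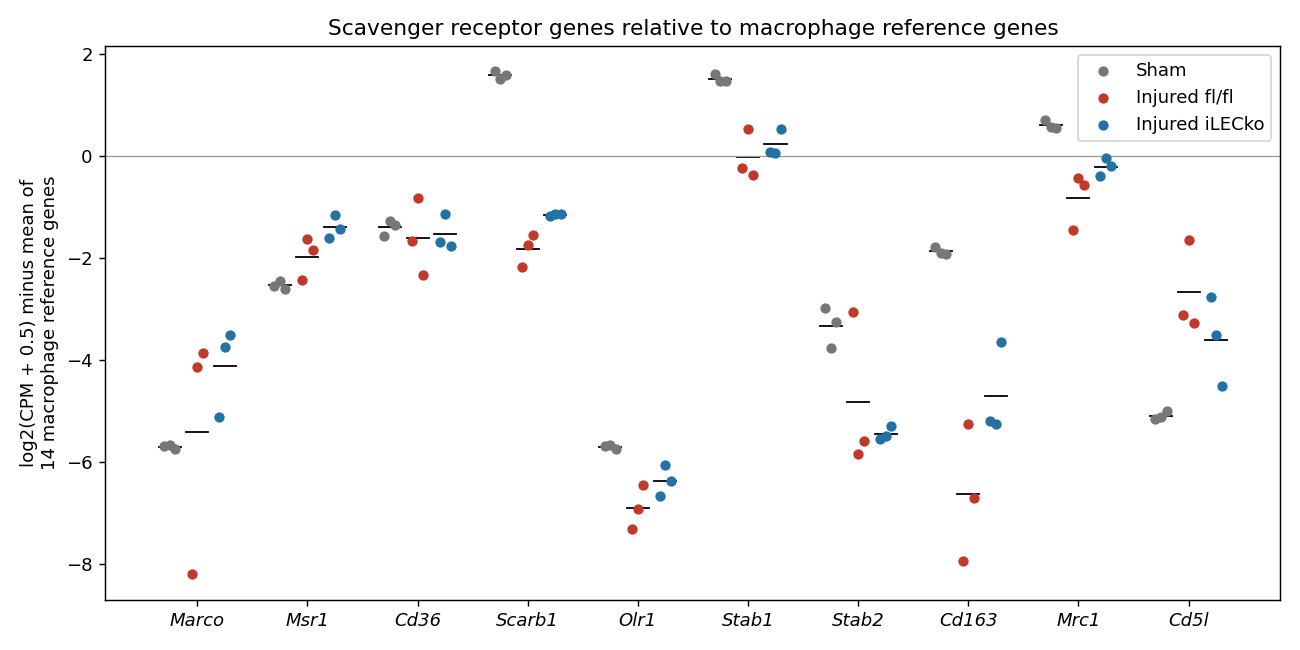
Level of each gene relative to 14 macrophage reference genes, as log2(CPM + 0.5) minus their mean in the same library, with a point per library and a line at each group mean (n = 3). *Scarb1*, *Stab1*, *Cd163* and *Mrc1* lie lower in injured than in Sham libraries and *Msr1* and *Cd5l* higher, while the Sham values of *Marco* and *Olr1* come from 0 counts.

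The genes whose profiles over the 9 libraries were most like each receptor were found by the root mean square (RMS) difference of centred log2 CPM among 14212 genes, as a description. *Mrc1* was closest to *Fgd3* (0.13), *Cdh5* (0.16), the VE-cadherin gene of endothelium, and *Trp53i11* (0.16). *Msr1* was closest to *Lcp2* (0.17), a signalling adaptor gene of blood cells, *Il1a* (0.17) and *Snx20* (0.18). *Cd36* was closest to *Gdf15* (0.23), *Mmp27* (0.29) and *C1qc* (0.34), a complement gene of macrophages. *Stab1* was closest to *Il18bp* (0.17), *Ncapg2* (0.17) and *Syt8* (0.18). *Scarb1* was closest to *Arhgap39* (0.06), *Rnf44* (0.09) and *Olfm1* (0.09). The remaining genes had less close neighbours. *Cd163* was nearest to *Prom1* (0.37), *Lyve1* (0.40) and *Lrp1b* (0.41), *Stab2* to *Tmem255b* (0.30), *Dpt* (0.34) and *Dnase1l3* (0.36), and *Cd5l* to *Ly9* (0.64), *Trem2* (0.68) and *B430306N03Rik* (0.68). The *Cd5l* distances depend in part on the pseudocount of 0.5 CPM, since it had 4 to 6 counts in Sham. For *Marco* and *Olr1*, at 0 counts in Sham, the pseudocount sets the profile and no neighbours are given. Among the other 8 receptors *Stab1* and *Mrc1* were the closest pair (0.35).

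Of 20 other scavenger receptor genes, 13 rose and 1 fell after injury, with a median log2 fold change of 0.94. *Clec7a*, the beta-glucan receptor Dectin-1, had the largest fitted change among those with Sham counts (5.82, edgeR adjusted p = 4.20e-07), and *Cd163l1*, a relative of *Cd163*, was at 0 in Sham and at a mean of 8.53 CPM in injured VEGFR3 fl/fl libraries. *Megf11* fell (-1.41, edgeR adjusted p = 0.00268), whereas *Lyve1*, a hyaluronan receptor, was at -1.20 and did not pass (edgeR adjusted p = 0.193). In VEGFR3 iLECko against injured VEGFR3 fl/fl irises 1 of the 20 rose and 0 fell. That gene was *Cd14*, the co-receptor for lipopolysaccharide, which was higher in VEGFR3 iLECko irises (0.86, edgeR adjusted p = 0.0407). With the Y-linked covariate it was at 0.95 and did not pass (edgeR adjusted p = 0.297). It also did not pass in the fit of the 6 libraries compared (edgeR adjusted p = 0.113). The same held with any single library left out other than VEGFR3 iLECko replicate 1. DESeq2 called *Cd14* higher (DESeq2 adjusted p = 9.11e-05).

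**Figure D4:**
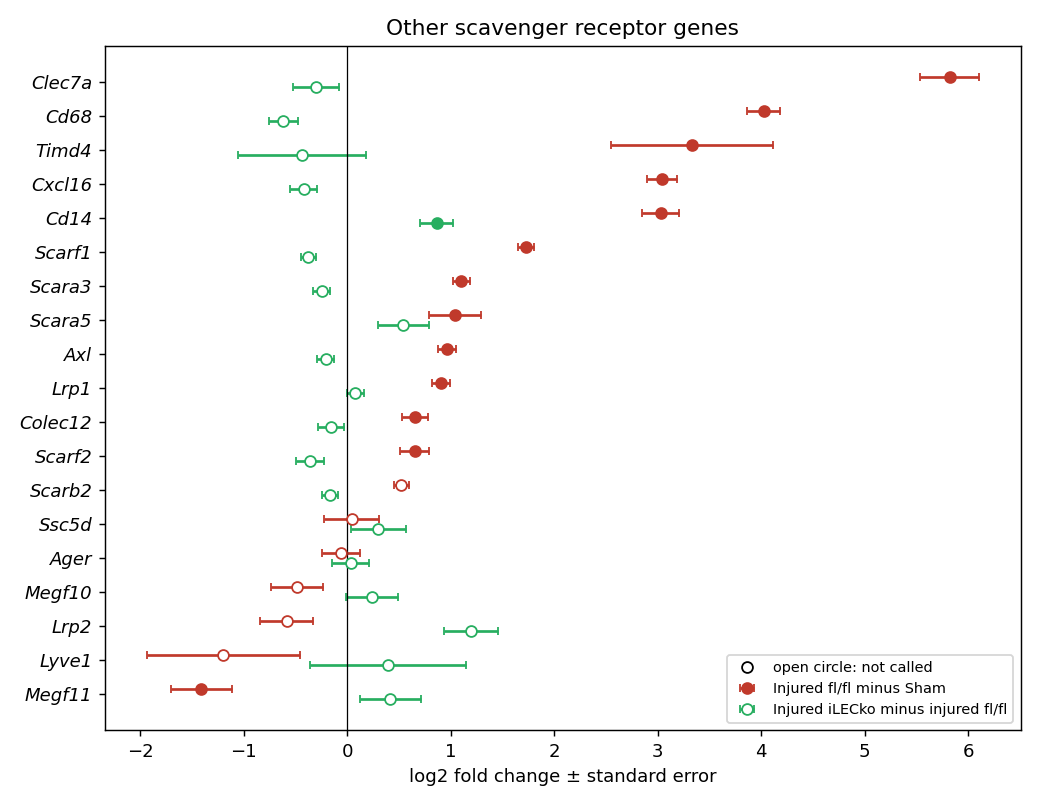
Log2 fold changes with standard errors (edgeR) of 19 of the 20 other scavenger receptor genes after injury and between the injured groups, without *Cd163l1*, which had 0 counts in Sham. Filled circles are called changes, and *Cd14* is the filled circle between the injured groups.

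Genes that handle the lipid taken up by such receptors rose in 16 of 21 cases after injury, with a median log2 fold change of 1.31. The fatty acid binding protein genes *Fabp4* (8.26) and *Fabp5* (6.74) rose most, and *Vldlr*, a lipoprotein receptor gene, fell (-1.20, adjusted p of at most 0.000237 for each by edgeR). In VEGFR3 iLECko against injured VEGFR3 fl/fl irises 18 of the 21 had a negative difference, and 1 fell by the test, *Plin2*, the lipid droplet coat gene (-0.68, edgeR adjusted p = 0.0278). With the Y-linked covariate *Plin2* was at -0.64 and did not pass (edgeR adjusted p = 0.266). It did not pass in the fit of the 6 libraries compared either (edgeR adjusted p = 0.101). It was also lost without Sham replicate 1 or 3 or any one VEGFR3 iLECko library (edgeR adjusted p = 0.0576 to 0.103). DESeq2 called *Plin2* lower (DESeq2 adjusted p = 7.98e-07). Of 10 genes of hemoglobin, haptoglobin and heme handling, 9 rose after injury, among them *Hp*, the haptoglobin gene (5.83), and the iron exporter gene *Slc40a1* (3.80), with adjusted p of at most 0.000992 by edgeR. *Hpx*, the hemopexin gene, was at -0.34 (edgeR adjusted p = 0.394). The biliverdin reductase genes *Blvra* (-0.60, edgeR adjusted p = 0.0399) and *Blvrb* (-0.86, edgeR adjusted p = 0.0496) were lower in VEGFR3 iLECko than in injured VEGFR3 fl/fl irises. With the Y-linked covariate they were at -0.47 and -0.43, and neither passed (edgeR adjusted p = 0.383 and 0.472). Neither passed in the fit of the 6 libraries compared (edgeR adjusted p = 0.105 and 0.14). Both were also lost without Sham replicate 1 or 3 or any one VEGFR3 iLECko library (edgeR adjusted p = 0.0579 to 0.165). *Blvra* was also lost without injured VEGFR3 fl/fl replicate 1, and *Blvrb* without Sham replicate 2 or injured VEGFR3 fl/fl replicate 2. DESeq2 called *Blvra* and *Blvrb* lower (DESeq2 adjusted p = 0.000264 and 0.000403).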

How the data were processed

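RNA of 9 iris libraries was analysed. The authors deposited estimated counts per gene, not normalized, in one table per library. Between 9.83% and 10.3% of values in a library were not whole. The submitters' processing notes name mm10, HISAT2 2.0.4, Bowtie2 2.2.5 and DESeq2 1.4.5. The counting program and annotation are not given in the sources used here, and a combined table of the same values was not used. Estimated counts were rounded, selected by filterByExpr (15010 of 18349 genes), normalized by TMM and fitted together with edgeR 4.0.16 in R 4.3.3, with group as the only term. Calls needed an adjusted p under 0.05 (quasi-likelihood test, Benjamini-Hochberg over all genes) and a change of more than 1.5-fold. The study selected genes by TPM, which these counts do not give. DESeq2 1.42.0 served as an alternative.

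All 10 receptors are described, with the 2 highest and 2 lowest changes of each gene list and the 3 genes nearest in profile with a mean of at least 1 CPM. Some members of the marker lists are named beside a result that they move with, chosen after their values were seen, as were the Y-linked covariate, *Cd14*, *Plin2* and *Blvra*. The result of 1 gene of the lipid list is not reported here. The members and the hand-written lists were chosen with earlier results of these data known. Lengths for approximate TPM were those of the longest GENCODE M21 transcript (96.1% of genes). Gene positions and the windows before gene starts are from RefSeq GRCm38.p6, the assembly of mm10. Bounds use 3 counts per library and cover counting error only. Each library is a pool, and p-values measure only the spread between these pools. The procedure was tested on simulated data.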

Additional observations from a re-analysis of the deposited data

How the results depend on the processing

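The number of the 10 genes called higher was 7 to 8 in injured VEGFR3 fl/fl against Sham and 6 to 7 in VEGFR3 iLECko against Sham over all alternatives, and 0 in either direction between the injured groups. With each library left out in turn, 0 to 1 genes were called lower after injury, the 1 being *Cd163* without injured VEGFR3 fl/fl replicate 2. With the covariate for Y-linked expression, added once the data had been seen, the median log2 difference of VEGFR3 iLECko from Sham was 2.96, and the differences between the injured groups changed sign for *Cd36* (0.16) and *Scarb1* (-0.24). The cause was not tested.

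Relative to *Adgre1* and *Csf1r* in place of 14 macrophage genes, the median receptor level was -0.55 in injured VEGFR3 fl/fl minus Sham (-1.31 with the 14) and -0.0745 in VEGFR3 iLECko minus Sham (-0.74 with the 14). The latter was -0.98 with a pseudocount of 2 CPM. These medians over all 10 include *Marco* and *Olr1*, whose Sham values are set by the pseudocount. Over the 8 genes with Sham counts, a choice made once the data had been seen, they were -1.46 and -1.05 with the 14 genes and -0.70 and -0.38 with *Adgre1* and *Csf1r*.

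Differences near 0 changed sign. *Scarb1* between the injured groups was -0.0084 with upper quartile factors, and *Cd163* in VEGFR3 iLECko minus Sham was -0.0515 with scaling by library size alone. With each library left out, *Scarb1* ranged from -0.18 to 0.11 after injury and from -0.14 to 0.14 between the injured groups. *Marco* ranged there from -0.65 to 0.46, *Msr1* from -0.28 to 0.0534, *Mrc1* from -0.34 to 0.073 and *Olr1* from -0.40 to 0.14. *Cd163* ranged from -0.67 to 0.35 in VEGFR3 iLECko minus Sham.

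Replicate numbers did not pair the libraries. Deviations from the group means correlated at -0.37 to 0.17 between libraries of one number, above 0.1 in 1 of 9 pairs. Between libraries of different number they correlated at -0.26 to 0.35, above 0.1 in 4 of 18 pairs. A batch under another numbering was not tested. With a replicate block the called genes were 8, 0 and 7 in the 3 comparisons. *Marco* was then at 0.52 between the injured groups and *Cd163* at -0.0534 in VEGFR3 iLECko minus Sham. Over all genes the block called 11 higher and 13 lower between the injured groups, against 86 and 70 without it and 349 and 280 by DESeq2, and *Cd14*, *Plin2*, *Blvra* and *Blvrb* did not pass (edgeR adjusted p = 0.0627 to 0.0859). *Blvrb* also missed the threshold with RLE size factors, all genes with any count or scaling by library size alone (edgeR adjusted p = 0.0501, 0.0503 and 0.0548). With scaling by library size alone *Blvra* was at -0.54, short of a 1.5-fold change.

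With scaling by library size alone, 2783 genes rose and 3523 fell after injury, against 3323 and 2630 with TMM, and the median of all genes was -0.16. *Marco* has no value in the fit of the 6 libraries of injured VEGFR3 fl/fl and Sham, where the filter removed it, and *Stab2* has no adjusted p in DESeq2. Counts of 0 in Sham limit *Marco* and *Olr1* to bounds.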

Other observations

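Other leucocyte lists moved with injury as well. Of 10 alternative activation genes that passed the filter (of 14 listed), 9 rose in injured VEGFR3 fl/fl irises and 0 fell, with a median log2 fold change of 3.07. *Chil3*, which encodes the lectin Ym1 (7.67, edgeR adjusted p = 0.000137), and the chemokine gene *Ccl8* (7.33, edgeR adjusted p = 4.88e-06) rose most. *Tgm2* rose least (0.77, edgeR adjusted p = 0.00058) and *Folr2* did not pass (1.12, edgeR adjusted p = 0.0691). In VEGFR3 iLECko against injured VEGFR3 fl/fl irises 0 of the 10 passed in either direction. *Arg1*, the arginase gene, was at 1.10 (edgeR adjusted p = 0.229) and *Mgl2* at -1.07 (edgeR adjusted p = 0.205).

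Of 8 dendritic cell markers, 7 rose after injury, and their sum was 11.5 to 13.1 CPM in Sham, 184 to 289 CPM in injured VEGFR3 fl/fl and 111 to 216 CPM in VEGFR3 iLECko libraries. Of 7 neutrophil markers tested, 5 rose, and their sum was 0.72 to 1.8 CPM, 92.6 to 230 CPM and 197 to 945 CPM in the 3 groups, with 1 to 2 of 8 at 0 in each Sham library. Skeletal muscle markers summed to 15.9 to 19.8 CPM in Sham and 2.24 to 4.67 CPM in injured VEGFR3 fl/fl libraries. Of 3 tested, 1 fell and 2 had a positive log2 fold change, with a median of 0.33.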
